A study of Mus musculus with 12 samples.

Results

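The genes described here are 39 genes of mitosis and the G2/M transition that were chosen by gene symbol, with earlier results of these data known. All 39 were found in the gene table of 45777 genes, and all 39 were among the 15932 genes with enough counts to be tested. Their messenger RNA was sequenced in 12 libraries of mpkCCDc11 cells, a line derived from the mouse kidney cortical collecting duct, in a series that asked how TAZ acts on aquaporin-2. One group received an siRNA against TAZ and dDAVP at 1e-09 M on the basolateral side, and a second received the TAZ siRNA and vehicle. Another received control siRNA and the same dDAVP, and the fourth received control siRNA and vehicle, with 3 libraries in each group. dDAVP is a vasopressin analogue that acts on the V2 receptor, and TAZ is a transcriptional coactivator of the Hippo pathway encoded by Wwtr1. All groups were cells of passages 11 to 16 with a wild-type label, grown for 3 days on semipermeable filters and then for 24 h without serum and hormones before dDAVP. The labels list exposures of 15 min, 30 min and 24 h for the series and do not assign one to these libraries. Whether the 3 libraries of a group were grown apart is not stated, and the p-values rest on their spread, which may be technical. The measurements come from a single cell line, and the siRNA left most of the Wwtr1 transcript.

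Cells enter mitosis when cyclin-dependent kinase 1, bound to A- and B-type cyclins, is activated, and they leave it when the anaphase-promoting complex destroys those cyclins. In between, motor proteins and Aurora kinases build the spindle, kinetochores join chromosomes to it, the spindle checkpoint delays anaphase until all are attached, and the central spindle places the cleavage furrow. Transcripts of these genes accumulate in late S and G2 phase and are low in resting cells, and the DREAM, MYB-MuvB and FOXM1 complexes control many of their promoters. In the adult collecting duct few epithelial cells divide, whereas cells of a line in culture do.

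The libraries held between 45095300 and 61725300 counts. Levels are given in CPM, counts scaled to a common library size with edgeR's TMM factors, which serve to compare a gene between libraries. Wwtr1, the target of the siRNA, had 108, 127 and 109 CPM with TAZ siRNA and dDAVP and 119, 114 and 116 CPM with TAZ siRNA and vehicle. With control siRNA, Wwtr1 had 174, 161 and 164 CPM under dDAVP and 179, 186 and 177 CPM under vehicle, above every TAZ siRNA library. Aqp2, the vasopressin-regulated water channel, was above 9 CPM in each of the 6 dDAVP libraries and below 0.4 CPM in each of the 6 vehicle libraries. For the cell type markers that follow and their sums, CPM is counts scaled to the library total without TMM factors. Of 14 markers of collecting duct and epithelium, 12 were over 1 CPM in all libraries. Of the 11 markers of fibroblasts, endothelium and immune cells, Col1a2, Kdr, Adgre1 and Cd3e were at 0 in all 12 libraries, and the sum of the 11 was at most 11.1 CPM in any library.

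Promoters of 6 of the 39 genes are shown first. They were picked for their sequence, as the genes that hold TTTGAA within the 30 bases before the annotated start, with a CCAAT box upstream of it, so their common layout is a result of that choice. Kif11, Top2a and Prc1 had lower transcript levels under dDAVP with both siRNAs, and Cdk1, Cdc20 and Ube2c did not pass the test with either. Each stretch runs 5′ to 3′ on the strand of the gene, from 120 bases before the annotated start to 30 bases after it. The sequences are from RefSeq on GRCm38.p6, at chr19:37376262-37376411 (plus strand) for Kif11, chr11:99024160-99024309 (minus strand) for Top2a, chr7:80294331-80294480 (plus strand) for Prc1, chr10:69352883-69353032 (minus strand) for Cdk1, chr4:118437314-118437463 (minus strand) for Cdc20 and chr2:164769809-164769958 (plus strand) for Ube2c. Capitals mark TTTGAA, the core of the cell cycle genes homology region, and CCAAT, the box bound by NF-Y, each on either strand (TTCAAA and ATTGG are the same elements on the other strand).
Kif11: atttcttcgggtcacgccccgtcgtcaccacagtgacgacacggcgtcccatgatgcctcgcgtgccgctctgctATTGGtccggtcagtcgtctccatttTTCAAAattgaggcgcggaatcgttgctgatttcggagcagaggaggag
Top2a: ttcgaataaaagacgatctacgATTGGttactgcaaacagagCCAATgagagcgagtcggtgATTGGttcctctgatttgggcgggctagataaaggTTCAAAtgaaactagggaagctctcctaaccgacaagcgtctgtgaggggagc
Prc1: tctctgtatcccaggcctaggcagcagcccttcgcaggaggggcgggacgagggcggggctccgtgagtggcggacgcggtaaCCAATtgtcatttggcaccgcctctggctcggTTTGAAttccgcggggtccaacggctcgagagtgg
Cdk1: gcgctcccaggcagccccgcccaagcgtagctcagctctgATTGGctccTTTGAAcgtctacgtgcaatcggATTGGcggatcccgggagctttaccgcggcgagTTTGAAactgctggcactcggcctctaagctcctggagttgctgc
Cdc20: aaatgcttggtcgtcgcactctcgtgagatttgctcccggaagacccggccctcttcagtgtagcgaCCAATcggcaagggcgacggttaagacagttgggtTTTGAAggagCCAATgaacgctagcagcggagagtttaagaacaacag
Ube2c: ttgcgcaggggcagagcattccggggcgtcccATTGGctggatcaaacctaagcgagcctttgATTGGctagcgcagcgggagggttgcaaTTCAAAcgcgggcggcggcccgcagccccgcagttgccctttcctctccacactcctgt
In these stretches a TTTGAA lies 19 bases before the start in Kif11, 23 bases before it in Top2a, 5 in Prc1, 15 in Cdk1, 18 in Cdc20 and 29 in Ube2c. The nearest CCAAT box upstream of it is 26 to 35 bases away in these 6.

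A promoter window of 300 bases whose start lay within 50 bases of the main transcript's start was available for 31 of the 39 genes and for 9933 other genes tested. The main transcript is the one with the most counts, and for some genes it held a minority of them, such as 30.5% for Prc1 and 25.7% for Racgap1. Other transcripts of a gene may start elsewhere. TTTGAA was found between 60 bases before and 50 bases after the start in 22 of the 31 (71.0%) and in 313 of the 9933 other genes (3.15%). Over the whole window, TTTGAA was present in 74.2% of the 31 and 11.8% of the other genes, and CCAAT in 77.4% and 38.9%. Both elements were present in 67.7% of the 31 and 4.98% of the other genes. The related TTCGAA was present in 9.68% of the 31 and 1.94% of the others. Among the genes with a window, those that were lower under dDAVP with control siRNA held TTTGAA near the start in 13 of 18 (72.2%), and those that were not called held it in 9 of 13 (69.2%). The place of TTTGAA varied among the 31: in 8 no TTTGAA was found in the window, in 8 the one nearest the start lay before it, up to 98 bases away, and in 15 it lay after the start, up to 40 bases away. In the 21 genes with a CCAAT box upstream of that TTTGAA, the distance ran from 9 to 153 bases with a median of 35. A match is a string of letters and not a measured binding site.

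To set levels of different genes side by side, the TPM values that the authors deposited were used, which are scaled to transcript length. Averaged over the 12 libraries, Top2a, the topoisomerase that untangles sister chromatids, was the most abundant of the 39 at 439 TPM. It was followed by Ube2c, the ubiquitin-conjugating enzyme of the anaphase-promoting complex, at 307 TPM, and Ccna2, cyclin A2, at 277 TPM. The lowest were Bub1, a checkpoint kinase, at 54.1 TPM, Kif4, a chromosome-bound kinesin, at 42.2 TPM, and Ttk, the checkpoint kinase MPS1, at 23.5 TPM. The ranges over libraries overlap between many neighbours in this order: Plk1, Aurkb, Aurka and Cenpe averaged 103, 102, 102 and 102 TPM.

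Most of these genes were slightly lower under dDAVP with either siRNA. With TAZ siRNA, 23 of the 39 were lower under dDAVP than under vehicle and none was higher, against 4.41% of all 15932 genes tested called lower and 6.38% called higher (edgeR quasi-likelihood test, adjusted p under 0.05). With control siRNA, 25 of the 39 were lower and none was higher, against 9.48% of all genes called lower and 9.72% called higher. The highest fitted change among the 39 was that of Bub3, a checkpoint protein, which did not pass the test, 0.0044 ± 0.047 on the log2 scale with TAZ siRNA and 0.037 ± 0.047 with control siRNA. The median log2 change over the 39 was -0.15 with TAZ siRNA and -0.19 with control siRNA, where the median of all genes tested was -0.00085 and -0.0012. The fitted change was below 0 for 38 of the 39 with TAZ siRNA and for 37 with control siRNA, against 50.3% of all genes in each.

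The genes that passed the test changed by -8.37% (Kif23) to -21.8% (Cenpf) with TAZ siRNA and by -8.96% (Plk1) to -20.02% (Bub1) with control siRNA. The 3 dDAVP libraries all lay below the 3 vehicle libraries for 30 of the 39 genes with TAZ siRNA (12.6% of all genes tested) and for 32 with control siRNA (17.9% of all genes tested). In 20 of the 39, all 6 dDAVP libraries lay below all 6 vehicle libraries, which was so for 3.96% of all genes tested. Summed over the 39 genes, CPM averaged 6463 ± 140.4 with TAZ siRNA and dDAVP, 7308 ± 100.5 with TAZ siRNA and vehicle, 6363 ± 196 with control siRNA and dDAVP, and 7317 ± 205 with control siRNA and vehicle (SD, n = 3 each). In bulk RNA, fewer cells in G2 and mitosis and less RNA per such cell cannot be told apart. The 5 markers of proximal tubule, thick limb and distal tubule, with Lrp2 the most abundant and Slc12a1 at 0 in all libraries, also moved, with sums of 125 to 135 CPM with TAZ siRNA and dDAVP, 139 to 154 CPM with TAZ siRNA and vehicle, 151 to 167 CPM with control siRNA and dDAVP, and 179 to 189 CPM with control siRNA and vehicle. The 14 markers of collecting duct and epithelium, with Cdh16 the most abundant, summed to 5707 to 5978 CPM with TAZ siRNA and dDAVP, 5233 to 5537 CPM with TAZ siRNA and vehicle, 5941 to 6123 CPM with control siRNA and dDAVP, and 5200 to 5519 CPM with control siRNA and vehicle. These sums were higher under dDAVP without overlap. The 4 immune markers, of which Cd68 was the most abundant, summed to 4.01 to 4.49 CPM with TAZ siRNA and dDAVP, 2.59 to 3.699 CPM with TAZ siRNA and vehicle, 3.80 to 4.36 CPM with control siRNA and dDAVP, and 2.87 to 3.76 CPM with control siRNA and vehicle, again higher under dDAVP without overlap within either siRNA. The 4 fibroblast markers, with Col1a1 the most abundant, summed to 4.68 to 5.85 CPM with TAZ siRNA and dDAVP, 6.04 to 7.24 CPM with TAZ siRNA and vehicle, 4.39 to 5.32 CPM with control siRNA and dDAVP, and 5.27 to 6.49 CPM with control siRNA and vehicle, and the 3 endothelial markers to at most 0.275 CPM in any library. The fibroblast sums were lower under dDAVP with TAZ siRNA and overlapped between treatments with control siRNA. The part of these markers in the result was not tested. Without replicate 2 of TAZ siRNA with dDAVP, in which all 39 genes lay below their own mean over the 12 libraries, 15 genes were called lower with TAZ siRNA.

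**Figure D1:**
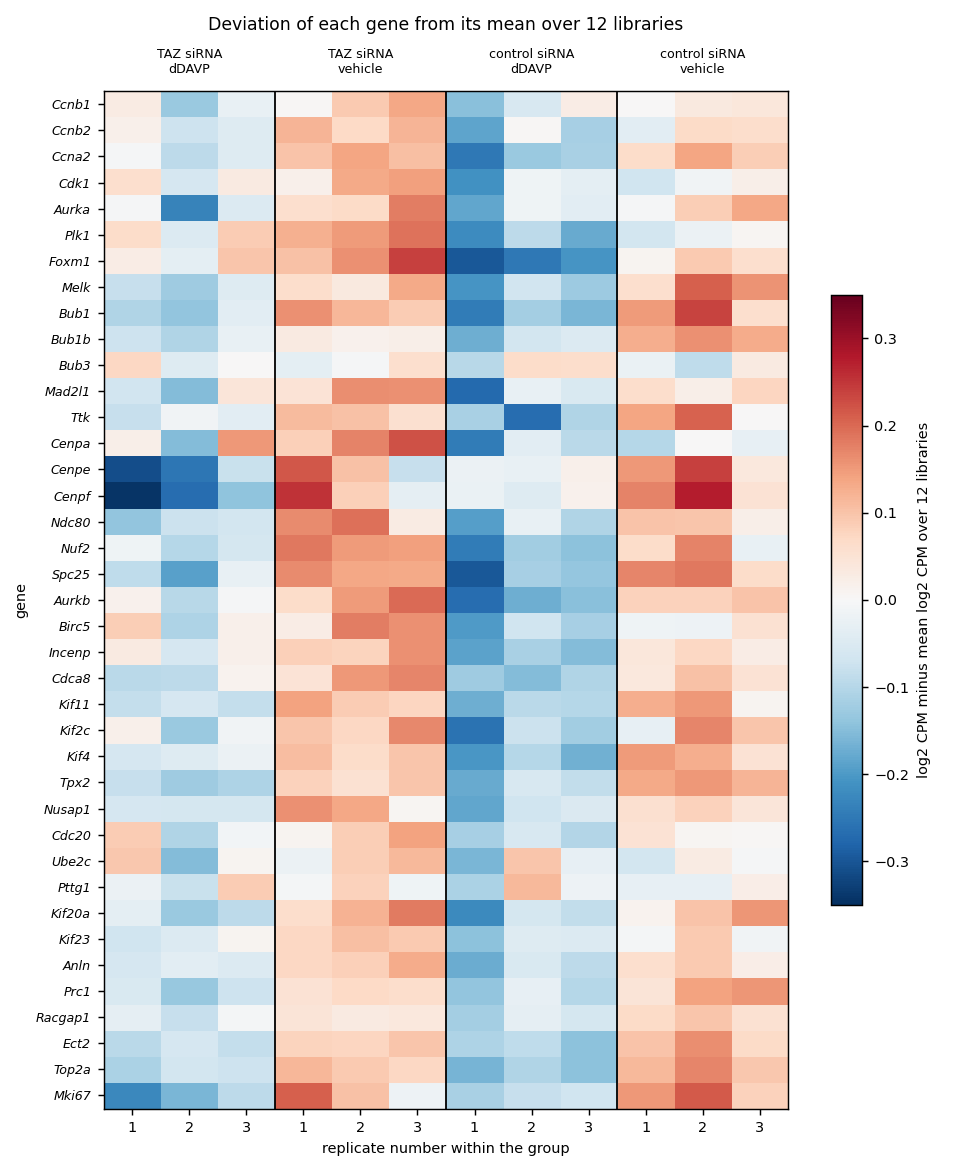
Each row is 1 of the 39 genes, grouped by role, and each column 1 of the 12 libraries, with the colour giving log2 CPM minus the gene's mean log2 CPM over all libraries (red above, blue below). Blue columns are mostly dDAVP libraries and red columns mostly vehicle libraries. All 39 genes were below their own mean in replicate 2 of TAZ siRNA with dDAVP and in replicate 1 of control siRNA with dDAVP.

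Top2a and Mki67, a pair of genes used as markers of proliferating cells, were lower under dDAVP with both siRNAs. With TAZ siRNA, Top2a had 789.7, 816 and 811 CPM under dDAVP and 926, 909.8 and 898 CPM under vehicle. With control siRNA, Top2a had 762, 793 and 772 CPM under dDAVP and 923, 961 and 911 CPM under vehicle. The 6 dDAVP libraries all lay below the 6 vehicle libraries, and the change was -0.18 ± 0.03, adjusted p = 0.000573 with TAZ siRNA and -0.27 ± 0.03, adjusted p = 4.77e-06 with control siRNA on the log2 scale. Mki67 encodes the Ki-67 antigen, which coats mitotic chromosomes. With TAZ siRNA, Mki67 had 728, 762 and 799 CPM under dDAVP and 983, 913 and 841 CPM under vehicle. With control siRNA, Mki67 had 787, 804 and 811 CPM under dDAVP and 945, 988 and 901 CPM under vehicle. The libraries did not overlap between treatments for Mki67 either, although the TAZ siRNA vehicle libraries spread over a wider range than the control siRNA dDAVP libraries. The log2 change of Mki67 was -0.26 ± 0.049, adjusted p = 0.00165 with TAZ siRNA and -0.24 ± 0.049, adjusted p = 0.00203 with control siRNA.

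**Figure D2:**
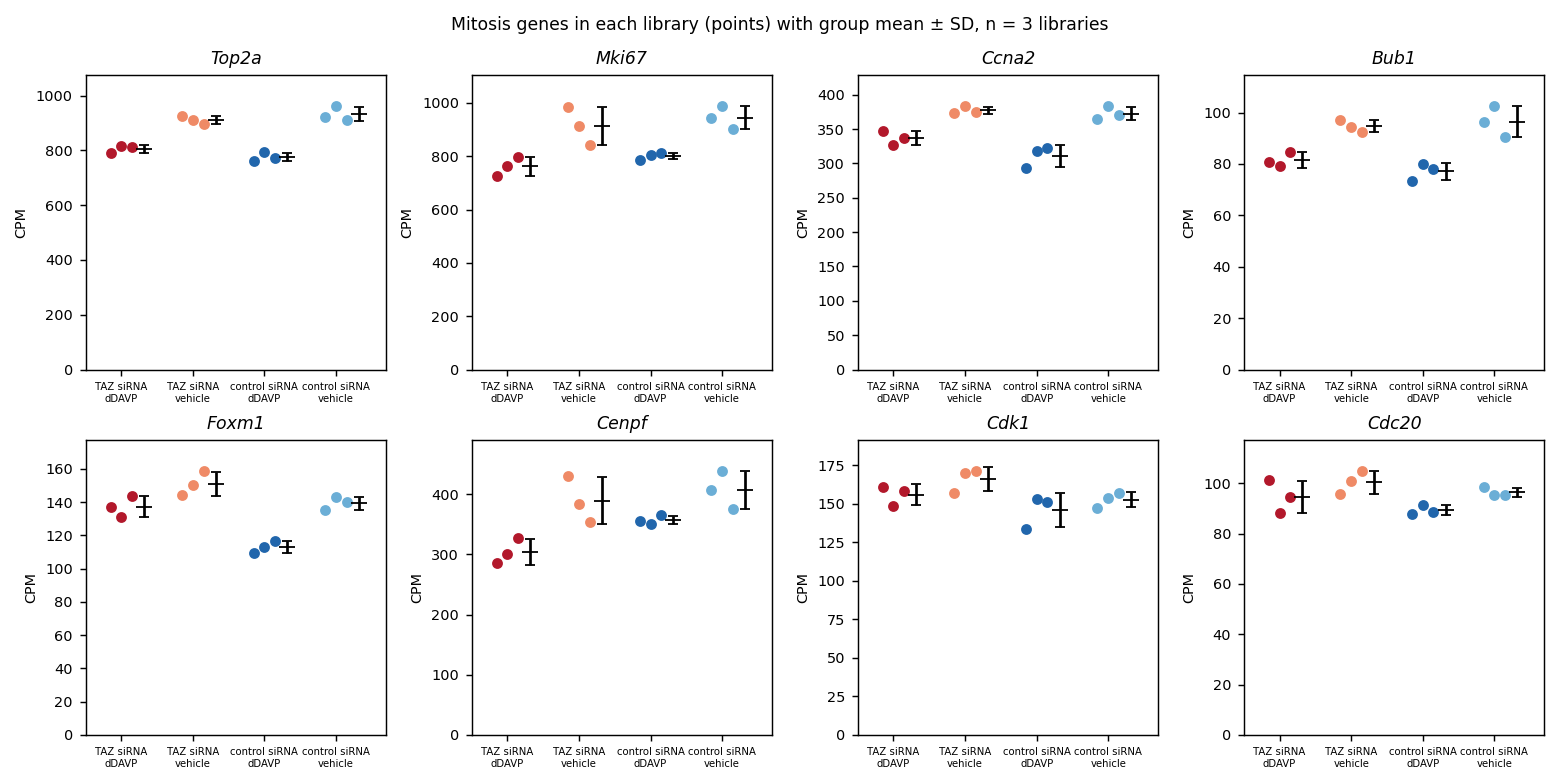
CPM (linear axis from 0) of 8 of the genes in each library (coloured points) with the group mean ± SD beside them (black, n = 3 libraries). In Top2a, Mki67, Ccna2 and Bub1 all dDAVP libraries lie below all vehicle libraries, whereas in Cdk1 and Cdc20 the treatments overlap with TAZ siRNA.

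Among the 8 cyclins, kinases and regulators of mitotic entry, 4 were lower under dDAVP with TAZ siRNA and 4 with control siRNA. Cyclin A2, which acts from S phase to early mitosis, was one of the genes lowered with both. With TAZ siRNA, Ccna2 had 347, 327 and 337 CPM under dDAVP and 373, 383 and 375 CPM under vehicle. With control siRNA, Ccna2 had 293, 318 and 322 CPM under dDAVP and 364, 383 and 370.0 CPM under vehicle. All 6 dDAVP libraries were below all 6 vehicle libraries of Ccna2, with a log2 change of -0.16 ± 0.037, adjusted p = 0.00703 with TAZ siRNA and -0.26 ± 0.037, adjusted p = 5.95e-05 with control siRNA. Foxm1, the transcription factor that activates many G2/M genes, was also lower with both. With TAZ siRNA, Foxm1 had 137, 131 and 144 CPM under dDAVP and 144, 150.1 and 158 CPM under vehicle. With control siRNA, Foxm1 had 109, 113 and 116 CPM under dDAVP and 135, 143 and 140.0 CPM under vehicle. The treatments did not overlap within either siRNA, and the log2 change of Foxm1 was -0.14 ± 0.041, adjusted p = 0.0406 with TAZ siRNA and -0.30 ± 0.041, adjusted p = 3.9e-05 with control siRNA. Melk, a kinase of mitotic cells, changed by -0.16 ± 0.045, adjusted p = 0.0288 with TAZ siRNA and -0.28 ± 0.045, adjusted p = 0.000236 with control siRNA.

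Cdk1 and its mitotic cyclins did not pass the test with either siRNA. Cdk1 is the kinase that drives entry into mitosis. With TAZ siRNA, Cdk1 had 161, 149 and 158 CPM under dDAVP and 157, 169.7 and 171 CPM under vehicle. With control siRNA, Cdk1 had 134, 153 and 151 CPM under dDAVP and 147, 154 and 157 CPM under vehicle. The treatments overlapped in both, and the log2 change of Cdk1 was -0.088 ± 0.049 (95% interval -0.19 to 0.016) with TAZ siRNA and -0.065 ± 0.05 (95% interval -0.17 to 0.04) with control siRNA. Ccnb1 encodes cyclin B1, the partner of Cdk1. With TAZ siRNA, Ccnb1 had 103, 92.1 and 99.1 CPM under dDAVP and 101, 107 and 111 CPM under vehicle. With control siRNA, Ccnb1 had 91.1, 97.0 and 103 CPM under dDAVP and 101, 103 and 104 CPM under vehicle. Ccnb1 also overlapped between treatments, with log2 changes of -0.12 ± 0.047, adjusted p = 0.13 with TAZ siRNA and -0.081 ± 0.047, adjusted p = 0.271 with control siRNA. Ccnb2, cyclin B2, changed by -0.14 ± 0.046, adjusted p = 0.072 with TAZ siRNA and -0.13 ± 0.046, adjusted p = 0.0637 with control siRNA. Its dDAVP libraries all lay below its vehicle libraries with TAZ siRNA, and the treatments overlapped with control siRNA. By DESeq2, Ccnb2 was called lower with TAZ siRNA (adjusted p = 0.0467) and not with control siRNA. With a filter of 1 CPM in 3 libraries, edgeR called it lower with control siRNA (adjusted p = 0.0462) and not with TAZ siRNA. With TAZ siRNA, the 95% intervals of Cdk1, Ccnb1 (-0.22 to -0.018) and Ccnb2 (-0.23 to -0.038) include the change of -0.16 fitted for Ccna2. With control siRNA, the intervals of Cdk1, Ccnb1 (-0.18 to 0.018) and Ccnb2 (-0.23 to -0.030) lie above the change of -0.26 fitted for Ccna2. The differences between these genes were not tested.

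Plk1 and Aurka each passed with 1 siRNA. Plk1, polo-like kinase 1, promotes centrosome maturation and mitotic entry. With TAZ siRNA, Plk1 had 88.4, 81.8 and 90.0 CPM under dDAVP and 92.2, 93.7 and 96.4 CPM under vehicle. With control siRNA, Plk1 had 72.5, 79.3 and 74.8 CPM under dDAVP and 80.8, 83.3 and 84.9 CPM under vehicle. The dDAVP libraries lay below the vehicle libraries within each siRNA. The log2 change of Plk1 was -0.12 ± 0.041, adjusted p = 0.0821 with TAZ siRNA and -0.14 ± 0.042, adjusted p = 0.0295 with control siRNA. Aurka encodes Aurora A, which matures centrosomes. With TAZ siRNA, Aurka had 72.7, 62.0 and 70.6 CPM under dDAVP and 76.1, 76.5 and 82.7 CPM under vehicle. With control siRNA, Aurka had 64.3, 72.2 and 71.1 CPM under dDAVP and 72.7, 77.4 and 80.1 CPM under vehicle. The treatments did not overlap within either siRNA, and the log2 change of Aurka was -0.20 ± 0.058, adjusted p = 0.0406 with TAZ siRNA and -0.15 ± 0.058, adjusted p = 0.0862 with control siRNA.

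Of the 5 spindle checkpoint genes, 1 was lower with TAZ siRNA and 3 were lower with control siRNA. Bub1, the kinase that recruits checkpoint proteins to unattached kinetochores, had the steepest fall of the 39 with control siRNA. With TAZ siRNA, Bub1 had 80.8, 79.1 and 84.8 CPM under dDAVP and 97.3, 94.4 and 92.5 CPM under vehicle. With control siRNA, Bub1 had 73.5, 80.1 and 77.9 CPM under dDAVP and 96.5, 103 and 90.6 CPM under vehicle. All dDAVP libraries were below all vehicle libraries of Bub1, with a log2 change of -0.22 ± 0.045, adjusted p = 0.00362 with TAZ siRNA and -0.32 ± 0.045, adjusted p = 5.3e-05 with control siRNA. Ttk starts checkpoint signalling by phosphorylating the kinetochore. With TAZ siRNA, Ttk had 24.2, 25.4 and 25.0 CPM under dDAVP and 27.7, 27.5 and 26.6 CPM under vehicle. With control siRNA, Ttk had 23.7, 21.3 and 23.8 CPM under dDAVP and 28.2, 29.6 and 25.7 CPM under vehicle. Its log2 change was -0.13 ± 0.058, adjusted p = 0.167 with TAZ siRNA and -0.28 ± 0.058, adjusted p = 0.00244 with control siRNA, with all dDAVP libraries below all vehicle libraries. Bub1b, which encodes the inhibitory protein BUBR1, changed by -0.09 ± 0.034, adjusted p = 0.111 with TAZ siRNA and by -0.23 ± 0.034, adjusted p = 8.87e-05 with control siRNA. Mad2l1, the checkpoint protein MAD2, did not pass with either, at -0.18 ± 0.059, adjusted p = 0.0561 with TAZ siRNA and -0.17 ± 0.059, adjusted p = 0.0594 with control siRNA. By another test, DESeq2, it was called lower with both (adjusted p = 0.0245 with TAZ siRNA and 0.0366 with control siRNA).

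Among the 6 centromere and kinetochore genes, 5 were lower with TAZ siRNA and 3 with control siRNA. Spc25, Ndc80 and Nuf2 encode subunits of the NDC80 complex, which holds microtubule ends, and they were lower with both siRNAs. With TAZ siRNA, Spc25 had 59.7, 55.6 and 62.4 CPM under dDAVP and 71.2, 69.7 and 69.7 CPM under vehicle. With control siRNA, Spc25 had 51.7, 58.6 and 57.8 CPM under dDAVP and 71.6, 72.1 and 66.5 CPM under vehicle. All 6 dDAVP libraries of Spc25 lay below all 6 vehicle libraries, with a log2 change of -0.25 ± 0.051, adjusted p = 0.00353 with TAZ siRNA and -0.32 ± 0.051, adjusted p = 0.000199 with control siRNA. With TAZ siRNA, Ndc80 had 54.9, 57.4 and 57.8 CPM under dDAVP and 67.8, 69.2 and 61.7 CPM under vehicle. With control siRNA, Ndc80 had 52.9, 59.4 and 56.2 CPM under dDAVP and 64.9, 64.7 and 61.4 CPM under vehicle. Ndc80 libraries did not overlap between treatments and changed by -0.22 ± 0.05, adjusted p = 0.00587 with TAZ siRNA and -0.18 ± 0.05, adjusted p = 0.0164 with control siRNA. Nuf2 changed by -0.22 ± 0.047, adjusted p = 0.00481 with TAZ siRNA and -0.24 ± 0.047, adjusted p = 0.00137 with control siRNA. Cenpa, the histone H3 variant of centromeres, did not pass with either, at -0.15 ± 0.066, adjusted p = 0.18 with TAZ siRNA and -0.08 ± 0.067, adjusted p = 0.467 with control siRNA.

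Cenpf and Cenpe, a large kinetochore protein and a kinesin that moves chromosomes to the spindle equator, passed with TAZ siRNA. With TAZ siRNA, Cenpf had 285, 301 and 328 CPM under dDAVP and 431, 383 and 354 CPM under vehicle. With control siRNA, Cenpf had 356, 351 and 365 CPM under dDAVP and 408, 438 and 375 CPM under vehicle. The vehicle libraries with TAZ siRNA spread widely for Cenpf, and its dDAVP libraries with TAZ siRNA were the lowest of the 12. The log2 change of Cenpf was -0.35 ± 0.069, adjusted p = 0.00322 with TAZ siRNA and -0.19 ± 0.069, adjusted p = 0.0739 with control siRNA. With TAZ siRNA, Cenpe had 239, 249 and 281 CPM under dDAVP and 345, 318 and 281 CPM under vehicle. With control siRNA, Cenpe had 293, 292 and 300.4 CPM under dDAVP and 329.8, 350.3 and 304 CPM under vehicle. For Cenpe the TAZ siRNA groups overlapped, with replicate 3 at nearly the same level in both. The log2 change of Cenpe was -0.30 ± 0.072, adjusted p = 0.0164 with TAZ siRNA and -0.15 ± 0.072, adjusted p = 0.17 with control siRNA. The main transcripts of Cenpf and Cenpe have 11130 and 7813 bases, Mki67 has 10075, and the main transcripts of the other 36 are at most 5421 bases. A part of transcript length in these values was not tested.

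Of the 4 genes of the chromosomal passenger complex, which corrects wrong attachments and later acts at the midzone, 2 were lower with TAZ siRNA and 3 with control siRNA. With TAZ siRNA, Aurkb had 76.2, 70.5 and 75.2 CPM under dDAVP and 78.8, 83.6 and 86.5 CPM under vehicle. With control siRNA, Aurkb had 62.7, 67.0 and 68.2 CPM under dDAVP and 79.7, 79.8 and 80.9 CPM under vehicle. Aurkb, the Aurora B kinase of the complex, changed by -0.17 ± 0.042, adjusted p = 0.015 with TAZ siRNA and -0.28 ± 0.042, adjusted p = 0.000112 with control siRNA, without overlap of treatments within either siRNA. Birc5 encodes survivin, which targets the complex to centromeres. With TAZ siRNA, Birc5 had 74.2, 64.9 and 70.9 CPM under dDAVP and 71.3, 79.3 and 78.2 CPM under vehicle. With control siRNA, Birc5 had 61.1, 66.7 and 64.6 CPM under dDAVP and 69.3, 69.2 and 72.6 CPM under vehicle. Treatments overlapped for Birc5 with TAZ siRNA, and its log2 change of -0.12 ± 0.051, adjusted p = 0.146 with TAZ siRNA and -0.13 ± 0.051, adjusted p = 0.0792 with control siRNA did not pass. Incenp, the scaffold of the complex, had 206, 194 and 204 CPM under dDAVP and 213, 213 and 225 CPM under vehicle with TAZ siRNA. With control siRNA, Incenp had 177, 187 and 182 CPM under dDAVP and 207, 212 and 205 CPM under vehicle. Incenp changed by -0.11 ± 0.034, adjusted p = 0.0502 with TAZ siRNA, just outside the threshold, and by -0.20 ± 0.034, adjusted p = 0.000474 with control siRNA. Cdca8, which encodes borealin, was lower with both, at -0.18 ± 0.044, adjusted p = 0.0103 with TAZ siRNA and -0.19 ± 0.044, adjusted p = 0.00463 with control siRNA.

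All 5 spindle motor and microtubule genes were lower with control siRNA, and 4 of them with TAZ siRNA. Kif11 encodes the kinesin that pushes spindle poles apart, and its promoter is the first of those shown. With TAZ siRNA, Kif11 had 282, 287 and 282 CPM under dDAVP and 329, 318 and 314 CPM under vehicle. With control siRNA, Kif11 had 265, 279.9 and 278 CPM under dDAVP and 326, 332 and 300.4 CPM under vehicle. All dDAVP libraries were below all vehicle libraries of Kif11, which changed by -0.18 ± 0.037, adjusted p = 0.00354 with TAZ siRNA and -0.22 ± 0.037, adjusted p = 0.000345 with control siRNA. Tpx2, the activator of Aurora A on spindle microtubules, changed by -0.18 ± 0.033, adjusted p = 0.00116 with TAZ siRNA and -0.24 ± 0.033, adjusted p = 3.92e-05 with control siRNA. Nusap1, a microtubule-bundling protein, changed by -0.16 ± 0.041, adjusted p = 0.0137 with TAZ siRNA and -0.16 ± 0.041, adjusted p = 0.0106 with control siRNA. Kif4 changed by -0.13 ± 0.037, adjusted p = 0.0283 with TAZ siRNA and -0.27 ± 0.037, adjusted p = 4.71e-05 with control siRNA. Kif2c, which depolymerises microtubules at centromeres, did not pass with TAZ siRNA at -0.15 ± 0.056, adjusted p = 0.0972, and was lower with control siRNA at -0.23 ± 0.056, adjusted p = 0.00714.

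None of the 3 genes of anaphase and mitotic exit passed the test with either siRNA. Cdc20 activates the anaphase-promoting complex once the checkpoint is satisfied. With TAZ siRNA, Cdc20 had 101, 88.2 and 94.4 CPM under dDAVP and 95.7, 101 and 105 CPM under vehicle. With control siRNA, Cdc20 had 87.7, 91.4 and 88.5 CPM under dDAVP and 98.5, 95.5 and 95.4 CPM under vehicle. Treatments overlapped for Cdc20 with TAZ siRNA and not with control siRNA, and the log2 change was -0.085 ± 0.045 (95% interval -0.18 to 0.0093) with TAZ siRNA and -0.11 ± 0.045 (95% interval -0.21 to -0.019) with control siRNA. Ube2c changed by -0.072 ± 0.064 (95% interval -0.21 to 0.063) with TAZ siRNA and -0.013 ± 0.064 (95% interval -0.15 to 0.12) with control siRNA. Pttg1, securin, changed by -0.021 ± 0.063 (95% interval -0.15 to 0.11) with TAZ siRNA and 0.0081 ± 0.063 (95% interval -0.12 to 0.14) with control siRNA. The lower bound for Ube2c with control siRNA lies above the fitted changes of Top2a, Ccna2 and Bub1 with the same siRNA. With TAZ siRNA, the lower bound of -0.208 lies below the changes of Top2a (-0.178) and Ccna2 (-0.162) and above that of Bub1 (-0.216). The differences between these genes were not tested.

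Among the 6 genes of the central spindle and cytokinesis, 5 were lower with each siRNA. Kif20a, a kinesin that carries the passenger complex to the midzone, changed by -0.21 ± 0.046, adjusted p = 0.00597 with TAZ siRNA and -0.21 ± 0.046, adjusted p = 0.00324 with control siRNA. Ect2, the exchange factor that activates RhoA at the furrow, changed by -0.16 ± 0.031, adjusted p = 0.00171 with TAZ siRNA and -0.22 ± 0.031, adjusted p = 4.37e-05 with control siRNA. Prc1, which bundles antiparallel microtubules, changed by -0.15 ± 0.037, adjusted p = 0.0138 with TAZ siRNA and -0.20 ± 0.037, adjusted p = 0.000629 with control siRNA. Anln, the furrow scaffold anillin, changed by -0.14 ± 0.033, adjusted p = 0.00856 with TAZ siRNA and -0.16 ± 0.033, adjusted p = 0.00196 with control siRNA. Kif23 and Racgap1 encode the centralspindlin complex. Kif23 was lower with TAZ siRNA at -0.13 ± 0.037, adjusted p = 0.0333 and did not pass with control siRNA at -0.10 ± 0.037, adjusted p = 0.0594. Racgap1 did not pass with TAZ siRNA at -0.077 ± 0.031, adjusted p = 0.136 and was lower with control siRNA at -0.14 ± 0.031, adjusted p = 0.00317.

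**Figure D3:**
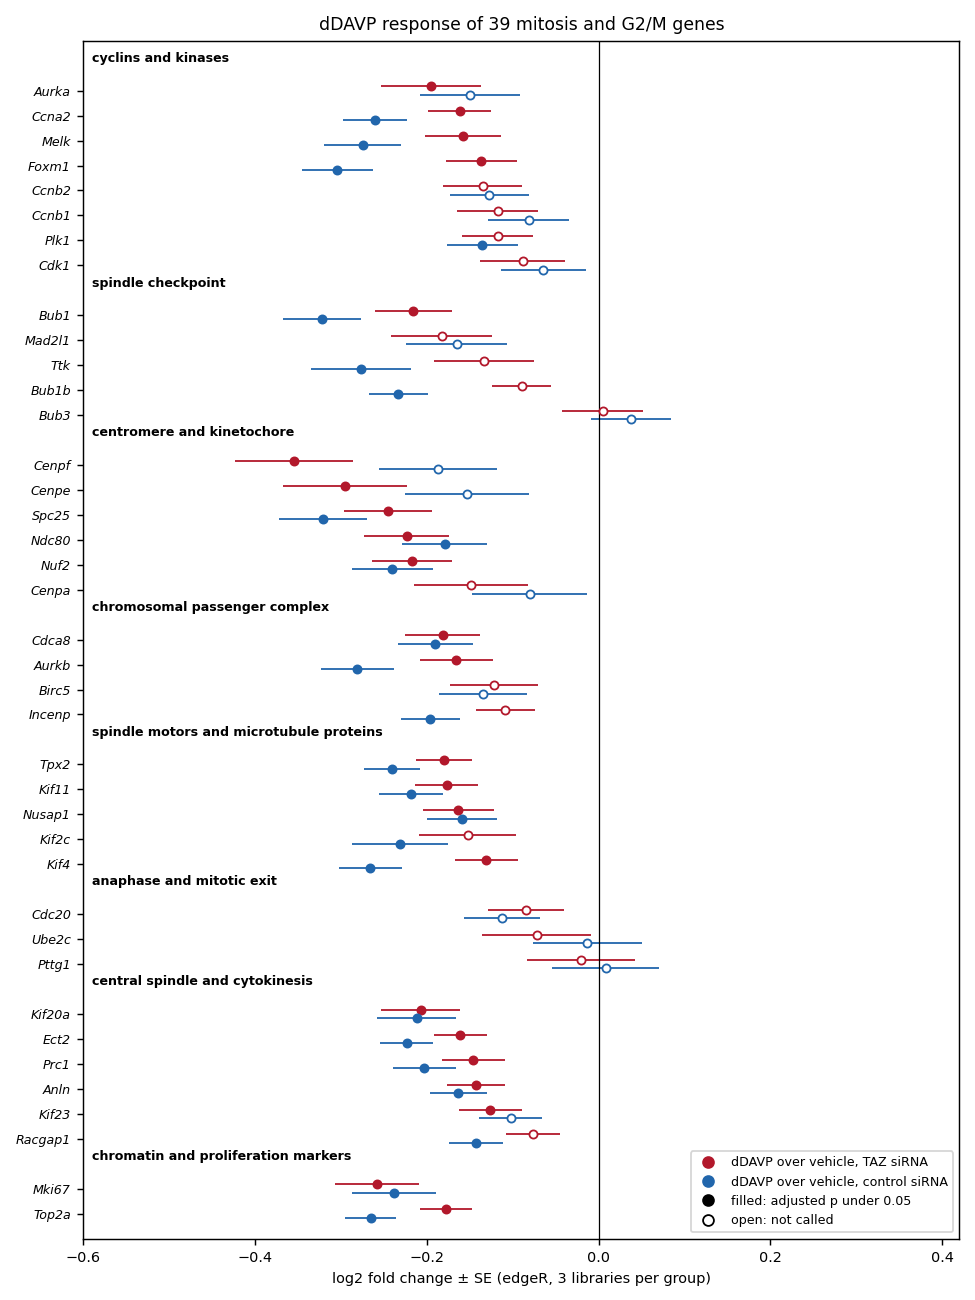
Log2 fold change ± SE of dDAVP over vehicle for each of the 39 genes by role, with TAZ siRNA in red and control siRNA in blue (filled, adjusted p under 0.05; open, not called). Nearly all points lie left of 0, down to -0.35 for Cenpf with TAZ siRNA and -0.32 for Bub1 with control siRNA, and the 3 genes of anaphase and mitotic exit are open in both.

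Leaving out each library in turn, 14 of the 23 calls with TAZ siRNA held in every case, among them Top2a, Mki67, Ccna2, Bub1, Kif11 and the 3 NDC80 subunits. Without replicate 1 of TAZ siRNA with dDAVP, Cenpe, Foxm1, Kif23, Kif4 and Melk were no longer called (adjusted p = 0.0692 to 0.124). Without replicate 2 of that group, Aurka, Aurkb, Cenpe, Foxm1, Kif23, Kif4, Melk and Prc1 were not called (0.0563 to 0.146), and without replicate 3 Aurka and Kif4 were not (0.0544 and 0.0572). Without replicate 1 of TAZ siRNA with vehicle, Cenpe, Kif4 and Nusap1 were not called (0.0565 to 0.0861). Without replicate 2 of that group it was Aurka, Aurkb, Cenpe, Foxm1, Kif23, Nusap1 and Prc1 (0.0525 to 0.11), and without replicate 3 Aurka, Aurkb, Foxm1, Kif23, Kif4 and Melk (0.0531 to 0.127). With control siRNA, 21 of the 25 calls held in every case, among them Bub1, Foxm1, Aurkb, Ttk and Top2a. Ndc80, Nusap1 and Plk1 were not called without replicate 1 of control siRNA with dDAVP (0.0552 to 0.114), and Plk1 not without replicate 3 (0.0866). Ndc80 was not called without replicate 1 of control siRNA with vehicle (0.0665). Kif2c, Ndc80 and Plk1 were not called without replicate 2 of that group (0.054 to 0.0844), nor Plk1 without replicate 3 (0.106).

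The dDAVP response of these genes was not shown to depend on the siRNA. Wwtr1 itself averaged 114 CPM with TAZ siRNA and 166 CPM with control siRNA under dDAVP. Under vehicle it averaged 116 CPM with TAZ siRNA and 181 CPM with control siRNA, so a fuller loss of TAZ was not examined. Of the 39, 19 were called lower with both siRNAs (3.2% of all genes tested), 4 with TAZ siRNA alone (1.21%), 6 with control siRNA alone (6.28%), and 10 with neither (89.3%). In the test of the difference between the responses, none of the 39 passed by edgeR, DESeq2 or limma-voom, against 0.0314% of all genes by edgeR. By edgeR 3 of the 39 had an unadjusted p under 0.05, against 8.13% of all genes. These were Bub1b, with a difference of 0.14 ± 0.049, Kif4, with 0.14 ± 0.052, and Foxm1, with 0.17 ± 0.058 (adjusted p = 0.414, 0.495 and 0.436). A positive difference means a smaller fall with TAZ siRNA. The differences of the 39 genes ran from -0.17 (Cenpf) to 0.17 (Foxm1) with a median of 0.020, and their 95% intervals reached -0.38 and 0.32. For Top2a the interval of the difference was -0.0017 to 0.18.

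With TAZ siRNA alone, the share of these genes that was called was no larger than that of all genes tested. Under vehicle, 1 of the 39 was higher with TAZ siRNA than with control siRNA and none was lower, against 3.19% of all genes tested called higher and 3.11% called lower. The median log2 change over the 39 was 0.032, where that of all genes tested was 0.0017, and 6 of the 39 had an unadjusted p under 0.05, against 20.2% of all genes. Plk1 was the gene that passed, with 92.2, 93.7 and 96.4 CPM with TAZ siRNA and 80.8, 83.3 and 84.9 CPM with control siRNA. The groups did not overlap, and the log2 change was 0.18 ± 0.041, adjusted p = 0.0138. It no longer passed without replicate 1 of control siRNA (adjusted p = 0.0817), replicate 2 of TAZ siRNA (0.0637) or replicate 3 of TAZ siRNA (0.0749). Bub1b was just outside the threshold in the other direction at -0.12 ± 0.034, adjusted p = 0.0507. Top2a, Mki67 and Ccna2 changed by -0.033 ± 0.03, -0.05 ± 0.049 and 0.018 ± 0.037, and their TAZ siRNA and control siRNA libraries overlapped. The siRNA groups did not overlap for 5 genes that were higher (11.9% of all genes tested) and 3 that were lower (11.5%).

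Under dDAVP, 4 of the 39 were higher with TAZ siRNA than with control siRNA and 1 was lower, against 5.77% and 4.97% of all genes tested. The median log2 change was 0.055, where that of all genes tested was 0.0025. Foxm1 had 137, 131 and 144 CPM with TAZ siRNA and 109, 113 and 116 CPM with control siRNA, without overlap, and its log2 change of 0.28 ± 0.042 (adjusted p = 0.000264) was the largest of the 39. Plk1 had 88.4, 81.8 and 90.0 CPM with TAZ siRNA and 72.5, 79.3 and 74.8 CPM with control siRNA, a log2 change of 0.20 ± 0.042, adjusted p = 0.00471. Plk1 was thus higher with TAZ siRNA in both treatments. Aurkb rose by 0.17 ± 0.043 (adjusted p = 0.0178) and Incenp by 0.15 ± 0.034 (adjusted p = 0.00952), and neither group pair overlapped. Cenpf was lower with TAZ siRNA at -0.23 ± 0.069, adjusted p = 0.0467, with 285, 301 and 328 CPM against 356, 351 and 365 CPM. The calls of Foxm1 and Plk1 held without any 1 library. Without replicate 1 of control siRNA with dDAVP, or without replicate 1 of TAZ siRNA with dDAVP, Aurkb, Incenp and Cenpf were not called, and 2 genes were higher and none lower (adjusted p = 0.0567 to 0.109 and 0.067 to 0.16). Without replicate 2 of TAZ siRNA with dDAVP, 7 genes were higher and Cenpf was not called (0.126), and without replicate 3 Aurkb was not (0.0781) and 2 genes were lower. Cenpf was also not called without replicate 2 (0.0844) or replicate 3 (0.122) of control siRNA with dDAVP, nor with 5 of the 8 other fits tried. The groups did not overlap for 10 genes that were higher (15.1% of all genes tested) and 2 that were lower (13.8%). The siRNA comparisons use the same libraries as the dDAVP comparisons, so their values are not independent.

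**Figure D4:**
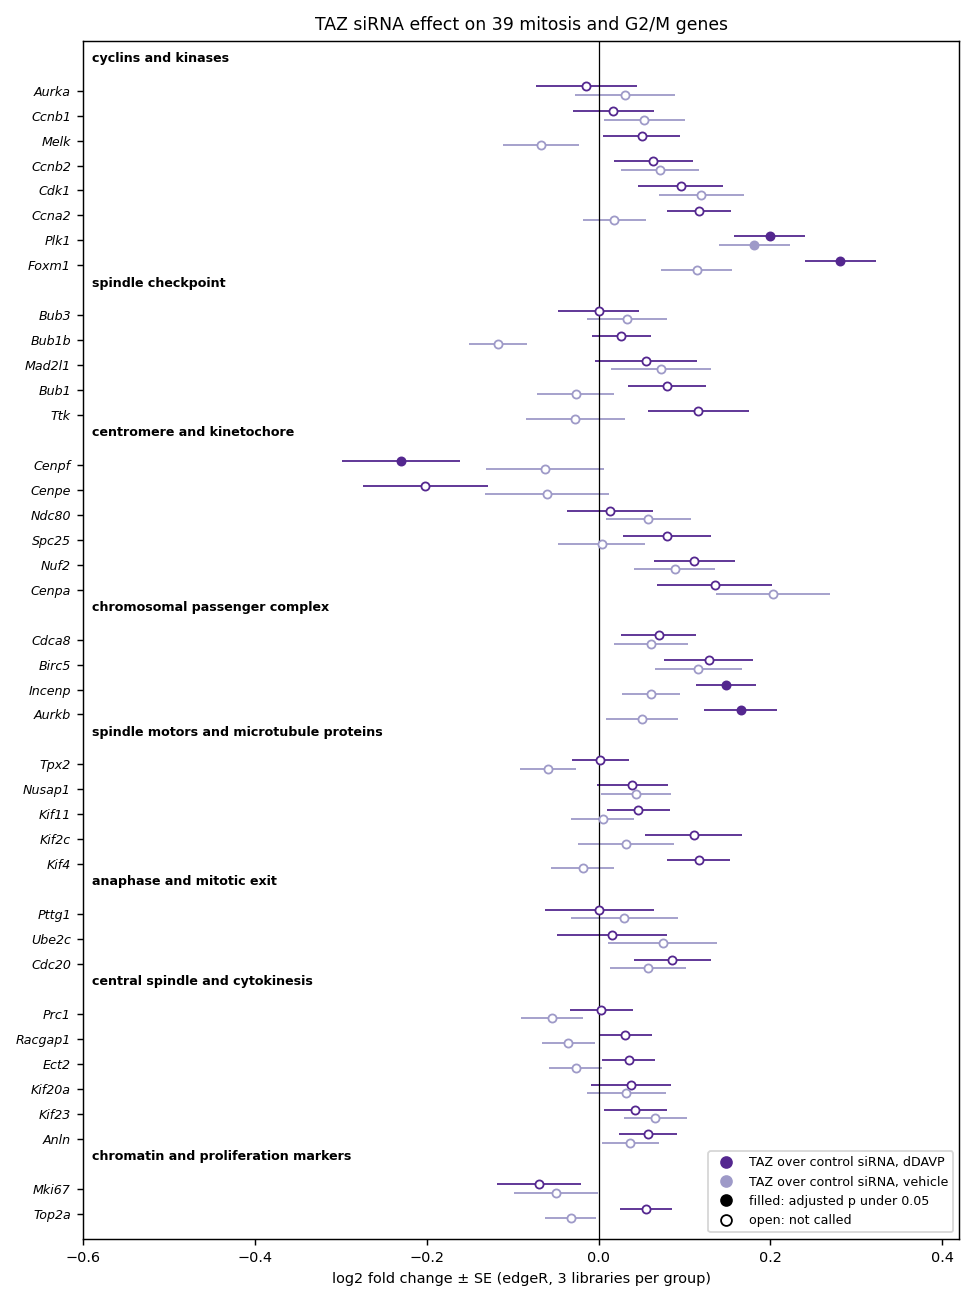
Log2 fold change ± SE of TAZ siRNA over control siRNA for each of the 39 genes by role, under dDAVP in dark purple and under vehicle in light purple (filled, adjusted p under 0.05; open, not called). Filled points are Plk1 in both treatments and Foxm1, Aurkb, Incenp and, left of 0, Cenpf under dDAVP, and the other points are open.

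Other mitosis genes, from a list of 71 that holds none of the 39, moved in the same direction under dDAVP. The list was also chosen with earlier results of these data known. For this and the following lists, the shares of all genes tested were 4.41% lower and 6.38% higher under dDAVP with TAZ siRNA. With control siRNA these shares were 9.48% lower and 9.72% higher. With TAZ siRNA 32 of the 71 were lower and none was higher (median log2 change -0.15), and with control siRNA 46 were lower and none was higher (median -0.19). With TAZ siRNA the list was led by Kif20b, a kinesin of cytokinesis, at -0.31 ± 0.082, adjusted p = 0.0266, and Knl1, a kinetochore scaffold, at -0.31 ± 0.08, adjusted p = 0.0245. With control siRNA it was led by Kif15, a spindle kinesin, at -0.29 ± 0.049, adjusted p = 0.00032, and Spag5, the spindle protein astrin, at -0.29 ± 0.046, adjusted p = 0.000201. Of 19 cohesin and condensin genes, 7 were lower and none was higher with each siRNA (median -0.11 with TAZ siRNA and -0.081 with control siRNA). Ncapg, a condensin subunit, was lower with both, at -0.21 ± 0.049, adjusted p = 0.00794 with TAZ siRNA and -0.25 ± 0.049, adjusted p = 0.00131 with control siRNA.

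Genes of DNA replication and S phase, 50 in all, had medians near that of all genes. With TAZ siRNA 2 of the 50 were lower under dDAVP and 1 was higher (median -0.0017), and with control siRNA 8 were lower and 1 was higher (median -0.029). With control siRNA the list was led by Pole, at -0.21 ± 0.031, adjusted p = 0.000107, and Exo1, at -0.20 ± 0.042, adjusted p = 0.00218. Dbf4, the activator of the replication kinase CDC7, was lower with both siRNAs, at -0.20 ± 0.035, adjusted p = 0.000731 with TAZ siRNA and -0.18 ± 0.035, adjusted p = 0.00138 with control siRNA. Mcm2, a subunit of the replicative helicase, rose by 0.15 ± 0.03 with TAZ siRNA (adjusted p = 0.00263). Of 16 core genes of the anaphase-promoting complex and its partners, none was called with TAZ siRNA (median -0.033) and 2 were lower with control siRNA (median -0.023). By edgeR, DREAM, MYB and E2F genes gave 1 higher and none lower of 23 with TAZ siRNA (median 0.0012) and 1 higher and 8 lower with control siRNA (median -0.068). E2f2 was the one that rose, by 0.22 ± 0.065 (adjusted p = 0.0403) with TAZ siRNA and 0.39 ± 0.065 (adjusted p = 0.000313) with control siRNA, and E2f7, a repressor, fell with control siRNA at -0.25 ± 0.034, adjusted p = 3.68e-05.

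Among 14 tested of 16 CDK inhibitors and G1 cyclins, 2 rose and 2 fell under dDAVP with TAZ siRNA (median -0.00037), and 3 rose and 2 fell with control siRNA (median -0.0096). Ccnd1, cyclin D1, which carries growth signals into G1, had the largest change of these lists. With TAZ siRNA, Ccnd1 had 37.7, 31.2 and 36.9 CPM under dDAVP and 45.7, 65.7 and 62.4 CPM under vehicle. With control siRNA, Ccnd1 had 26.0, 29.2 and 28.9 CPM under dDAVP and 38.6, 44.3 and 39.8 CPM under vehicle. The dDAVP libraries lay below the vehicle libraries within each siRNA, and the Ccnd1 log2 change was -0.71 ± 0.12, adjusted p = 0.00128 with TAZ siRNA and -0.54 ± 0.12, adjusted p = 0.00618 with control siRNA. Ccnd3, cyclin D3, rose by 0.26 ± 0.046 (adjusted p = 0.000783) with TAZ siRNA and 0.22 ± 0.046 (adjusted p = 0.00207) with control siRNA. Under vehicle, 3 genes of the list were higher with TAZ siRNA than with control siRNA (3.19% of all genes tested) and 1 was lower (3.11%). The median was -0.0077, with Ccnd1 at 0.50 ± 0.12, adjusted p = 0.0224 and Ccnd3 at 0.22 ± 0.046, adjusted p = 0.0085.

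Between siRNAs, 5.77% of all genes tested were higher and 4.97% lower with TAZ siRNA under dDAVP, and 3.19% were higher and 3.11% lower under vehicle. Of the 71 other mitosis genes, 14 were higher with TAZ siRNA than with control siRNA under dDAVP and none was lower (median 0.053). Under vehicle 2 of the 71 were higher and 1 was lower (median 0.038). Pkmyt1, a kinase that holds Cdk1 inactive, was higher with TAZ siRNA in both treatments, at 0.27 ± 0.047, adjusted p = 0.00115 under dDAVP and 0.21 ± 0.047, adjusted p = 0.0109 under vehicle. Of the 19 cohesin and condensin genes, 1 was higher and 5 were lower with TAZ siRNA under dDAVP (median -0.078), with Smc4, a condensin subunit, at -0.23 ± 0.06, adjusted p = 0.0206, and Smc3, a cohesin subunit, at -0.22 ± 0.054, adjusted p = 0.0141, and 1 was lower under vehicle (median -0.049). Of the 23 DREAM, MYB and E2F genes, 4 were higher under dDAVP (median 0.040), led by E2f8 at 0.23 ± 0.04, adjusted p = 0.0011, and none was called under vehicle (median -0.019). Of the 50 S phase genes, 2 were higher and 2 lower under dDAVP (median -0.00056), and 7 were lower under vehicle (median -0.036). Of the 14 CDK inhibitors and G1 cyclins, 2 were higher under dDAVP (median 0.0018). Of the 16 genes of the anaphase-promoting complex, 1 was higher under dDAVP (median 0.015) and none was called under vehicle (median -0.016). In the test of the difference between dDAVP responses, no gene of these lists was called by edgeR (0.0314% of all genes tested), and their medians lay between 0.0043 and 0.072.

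**Figure D5:**
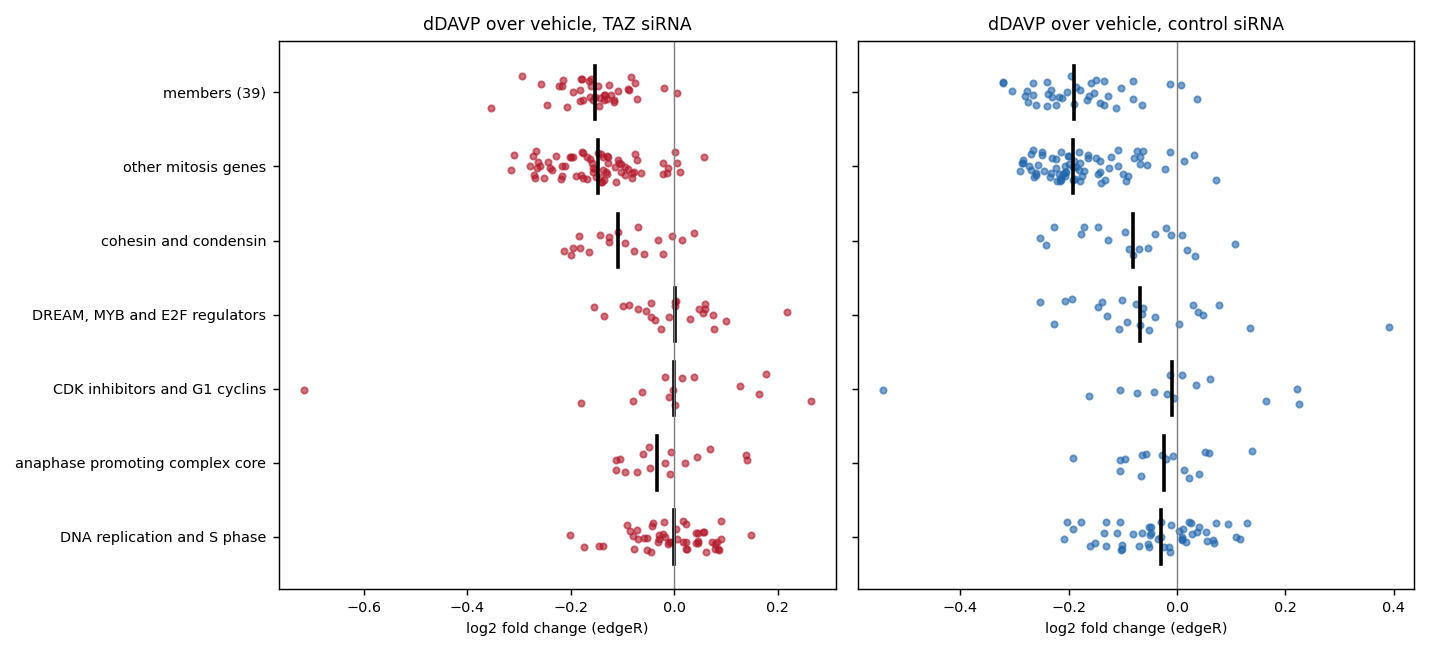
Log2 fold change of dDAVP over vehicle for single genes (points, jittered vertically) and list medians (black bars), with TAZ siRNA left and control siRNA right. The 39 genes and the other mitosis genes have medians between -0.19 and -0.15 in both panels, and the list of DNA replication and S phase lies around 0.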

How the data were processed

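Messenger RNA of 12 mpkCCDc11 libraries was analysed from a gene table and a transcript table. Per the labels' protocols, libraries were made with a TruSeq stranded mRNA kit, with another TruSeq RNA kit also named. Bowtie 0.12.2 is listed with no role given, as are mm8 and mm10 among builds, per the submitters' processing notes. Which tool made the counts, and how it split reads between near-identical genes, is not stated in the labels. Estimated counts per gene and transcript were deposited by the authors as whole numbers, not normalised, per the file headers. The authors also deposited TPM per gene and FPKM per transcript, per the file headers. TPM served to rank genes by level. FPKM served to check the counts. For 85.6% of 157342 transcript counts of 2 to 20, the count rebuilt from the FPKM value was not whole by over 0.05. The rebuilt count used the listed transcript length and a single scale factor per library, and another length or factor could also make it not whole. The check therefore does not settle whether the counts are tallies or rounded estimates, and they were treated as estimates. The design had assumed read counts, and the test for counts was kept. Values of 24 further columns were left aside.

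The 39 genes were tested in a fit across the whole gene table with R 4.3.3 and edgeR 4.0.16 (filterByExpr, minimum count 10, TMM factors of 0.988 to 1.01, robust quasi-likelihood fit with 1 mean per group over all 12 libraries). P-values were adjusted by Benjamini-Hochberg over the 15932 genes tested, which held 99.98% of all counts, and called genes had an adjusted p under 0.05. The biological coefficient of variation was 5.11%. Adjusted p-values of single genes come from this edgeR test unless another tool is named. The standard error was derived from the log2 fold change and its F statistic, and intervals are 95%. CPM values are counts scaled to library size after TMM, except those of the cell type markers and their sums, which were scaled without TMM factors. Every pair of replicates differed by more than sampling noise, with a chi-square of 4.2 to 13.2 per degree of freedom. The procedure was also run on simulated data with set fold changes and the same spread for all genes. That run does not show how it performs at the smaller changes reported here. Alternatives were DESeq2 1.42.0, limma-voom (limma 3.58.1), other size factors and filters, the compared groups alone, the replicate number as a block and leaving out each library.

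The genes and the lists beside them were chosen with earlier results of these data known. Libraries are described one by one for 14 anchor genes and for the 5 called genes with the largest absolute log2 change in each comparison. From each other list, genes among the 3 called genes with the largest absolute change in a comparison are named, some with their value in a second comparison beside it. Ccnd1 is given by library because it had the largest of these changes, which was chosen after its values were seen.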

Additional observations from a re-analysis of the deposited data

How the results depend on the processing

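Under the other size factors, filters, tests and model fits, the number of genes lower under dDAVP ran from 21 to 26 of 39 with TAZ siRNA and from 25 to 31 with control siRNA, and no called change reversed its sign. Some genes that did not pass the main test were called lower under dDAVP by an alternative. By DESeq2 these were Mad2l1 with both siRNAs, Ccnb2 and Incenp with TAZ siRNA, and Kif23 with control siRNA. With the compared groups alone, they were Aurka, Mad2l1, Cenpe, Cenpf, Birc5 and Cdc20 with control siRNA. Leaving out 1 library gave 15 to 23 lower with TAZ siRNA, 22 to 27 lower with control siRNA, and none higher. The median change of the 39 then ran from -0.17 to -0.14 with TAZ siRNA and from -0.22 to -0.18 with control siRNA. For TAZ siRNA under vehicle, leaving out 1 library gave 0 to 1 higher and 0 to 1 lower, with a median of 0.015 to 0.040. Genes lower with TAZ siRNA under vehicle numbered 1 with RLE size factors, 1 with a filter of 1 CPM in 3 libraries and 1 with DESeq2, and genes higher numbered 2 with DESeq2 and 2 with the compared groups alone. For TAZ siRNA under dDAVP, leaving out 1 library gave 2 to 7 higher and 0 to 2 lower, with a median of 0.018 to 0.066. Genes lower with TAZ siRNA under dDAVP numbered 0 with upper-quartile factors, 0 with no filter, 0 with the filter of 1 CPM, 0 with limma-voom, 0 with the replicate block and 2 with the compared groups alone. The cause was not tested. The difference of responses had 0 calls among the 39 under these alternatives other than the compared groups alone, which was not run for it since it uses all 4 groups, with a median of -0.0095 to 0.047 when 1 library was left out. There were 2923 combinations of gene, comparison and alternative, called changes included and those without an adjusted p left out. In 127 of them a change that did not pass the test switched sign. Whether replicate numbers pair the libraries could not be settled from correlations. Same-numbered libraries correlated at -0.043 to 0.0732 in their deviations from the group means. The best match had the same number in 8 of 12 cases. With the replicate number as a block, 24 genes were lower with TAZ siRNA and 27 with control siRNA under dDAVP, and TAZ siRNA gave 1 higher and 0 lower under vehicle and 4 higher under dDAVP. With 3 libraries per group and counts that may be rounded estimates, small changes such as that of Cdk1 could not be told from 0.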

Other observations

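Among genes outside the 39, those whose log2 CPM followed the mean of the 39 most closely over the 12 libraries were Tpm1, Cntrob, Marcks, Lpcat1, Tacc3, Pclaf, Eomes, Cdca2, Fblim1 and Snn, with Pearson's r between 0.956 and 0.978. This is a description of libraries that share 4 groups, and it carries no p. Tacc3 and Cdca2 belong to the list of other mitosis genes, and the remaining 8 do not.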
